A study of Mus musculus with 15 samples.

Results

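The transcription factor p53, encoded by Trp53, and 9 genes that it activates directly (Cdkn1a, Mdm2, Ccng1, Trp53inp1, Phlda3, Eda2r, Sesn1, Zmat3 and Aen) were followed in the embryonic mouse pancreas. The genes are well-known parts of the pathway. These members and the gene lists below were chosen with earlier results of these data known. Their shares, set beside those of all genes, are therefore descriptions. The members were found in the count table through the symbol that the GENCODE M21 annotation gives each Ensembl gene, so that 10 of the 25292 genes of the table were members. All 10 carried enough reads to be tested.

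p53 is a transcription factor that cells hold at a low level by degrading the protein, and that damage or stress stabilises. Once stable, it binds response elements near its target genes and raises their transcription, which can stop the cell cycle, start repair, change metabolism or lead to cell death. Among the targets, Mdm2 is the ubiquitin ligase that marks p53 for degradation and so closes a negative feedback loop, and Cdkn1a encodes p21, the inhibitor of cyclin-dependent kinases that carries out the arrest. Because p53 is controlled mainly as a protein, the Trp53 transcript level and p53 activity are separate quantities, and only transcripts were measured here. In the pancreas, p53 is known for the loss of progenitors that follows when Mdm2 is removed.

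RNA was sequenced from 15 libraries in 5 groups of 3 biological replicates, all from mice of the C57/Bl6J strain. Pancreata labelled wt or S1pr2 null were collected on embryonic day 14.5 (14.5 days post coitum, dpc). Sphingosine-1-phosphate, a signalling lipid, acts on cells through receptors of which S1pr2 is one, and the null animals carried the germline allele S1pr2tm1Rlp, in which a Neo cassette interrupts the first exon. Explants of 14.5 dpc, described in the methods of the study as wild-type dorsal buds, were kept for 2 days at an air-liquid interface (ALI) in serum-free medium. They received standard medium (control), 15 µM JTE013 (JTE), an antagonist of S1pr2, or 15 µM JTE013 with 50 ng/ml connective tissue growth factor (JTE + CTGF). Up to 3 organs or explants with the same label went into each library, and no S1pr2 null explant and no explant with CTGF alone was analysed here.

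Libraries held 11402804 to 13828737 counted reads. S1pr2 itself had a normalised read count of 772, 762 and 762 in the wt libraries and 1458, 1263 and 1354 in the libraries labelled S1pr2 null. The transcript was thus not lower under the null label. A count over the whole gene does not show which part of it the reads came from, and with an inserted cassette reads from the rest of the gene can remain. This count thus checks nothing about the genotype. The methods of the study describe genotyping of its mice by PCR on genomic DNA, and the group is named here by its label. Within groups, the chi-square statistic per gene between a pair of replicates ranged from 2.35 to 25.2, and the library JTE 3 stood apart from JTE 1 (18.0) and JTE 2 (25.2). Markers of pancreatic epithelium, endocrine cells and mesenchyme were read in every group, and no marker on these lists was at 0 throughout a group.

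A p53 response element consists of a pair of copies of a 10-base unit (3 purines, C, A or T at the next 2 bases, G, 3 pyrimidines), a pattern that reads the same on both strands. The unit was searched without mismatch in the RefSeq promoter windows of the build GRCm38.p6, each from 250 bases before to 50 bases after an annotated start. Windows were found for 8 of the 10 genes, 11 in all, while Trp53inp1 and Zmat3 had no entry. The unit was present in 7 of these 11 windows (63.6%), against 2745 of all 32851 windows (8.36%), and in 6 of the 8 genes (75.0%), against 2582 of all 27025 genes (9.55%). A complete element, with the 2 copies side by side and at most 1 mismatch over the 20 bases, was present in 22 of all windows (0.067%), and Cdkn1a and Ccng1 were among them. Phlda3 and Eda2r had no match, which says only that these letters are not in these windows. The stretches that hold the matches are printed in the direction of transcription, with the bases of each unit in capitals. They show which members carry the unit close to a start. Only Cdkn1a and Ccng1 hold a complete element there, while Trp53, Mdm2, Sesn1 and Aen hold a single unit. Sequence outside these windows, such as introns, was not searched. Cdkn1a lies at chr17:29090881-29090972 (plus strand), before the upstream of its starts, and holds a single unit followed by a complete element with 1 mismatch. The window of its downstream start had no match. Ccng1 at chr11:40755437-40755506 (minus strand) holds a complete element with 1 mismatch, Trp53 lies at chr11:69580259-69580318 (plus strand), Mdm2 at chr10:117710910-117710969 (minus strand), Sesn1 at chr10:41887241-41887300 (plus strand) before the downstream of its starts, and Aen at chr7:78895932-78895951 (plus strand), inside an exon of the gene. These matches are descriptions of the sequence, and binding was not measured.
Cdkn1a: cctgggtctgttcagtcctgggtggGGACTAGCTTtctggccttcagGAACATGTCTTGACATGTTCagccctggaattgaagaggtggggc
Ccng1: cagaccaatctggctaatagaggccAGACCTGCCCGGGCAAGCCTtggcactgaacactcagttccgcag
Trp53: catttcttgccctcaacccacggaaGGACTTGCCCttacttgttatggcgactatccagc
Mdm2: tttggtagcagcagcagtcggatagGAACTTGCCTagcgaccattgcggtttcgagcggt
Sesn1: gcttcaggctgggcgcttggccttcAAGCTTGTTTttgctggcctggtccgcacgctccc
Aen: aagccGGGCTTGTCCgggca

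The members differed widely in level. In RPKM, which scales reads to exon length and library size (mean ± SD, n = 3), Cdkn1a was the most abundant in wt pancreata at 45.8 ± 3.37, followed by Trp53 at 35.9 ± 1.67. Ccng1 (17.4 ± 1.76), Sesn1 (16.7 ± 1.48), Phlda3 (14.5 ± 0.635) and Mdm2 (10.3 ± 0.391) formed the middle of the order, in which Ccng1 and Sesn1 did not differ beyond their spread. Aen (6.41 ± 0.377), Trp53inp1 (6.01 ± 0.392) and Zmat3 (5.98 ± 0.111) did not differ from one another beyond their spread either. Eda2r was lowest at 0.730 ± 0.275. Cdkn1a was also first by mean RPKM in the 3 groups of explants, up to 57.4 ± 3.11 under JTE, whereas in the libraries labelled S1pr2 null it stood at 32.9 ± 0.146, below Trp53 at 36.2 ± 0.784. Eda2r was last in all 5 groups. Trp53inp1 left the low end of the order in culture, with 21.7 ± 1.04 in control, 27.4 ± 1.07 under JTE and 23.8 ± 2.74 under JTE + CTGF.

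**Figure D1:**
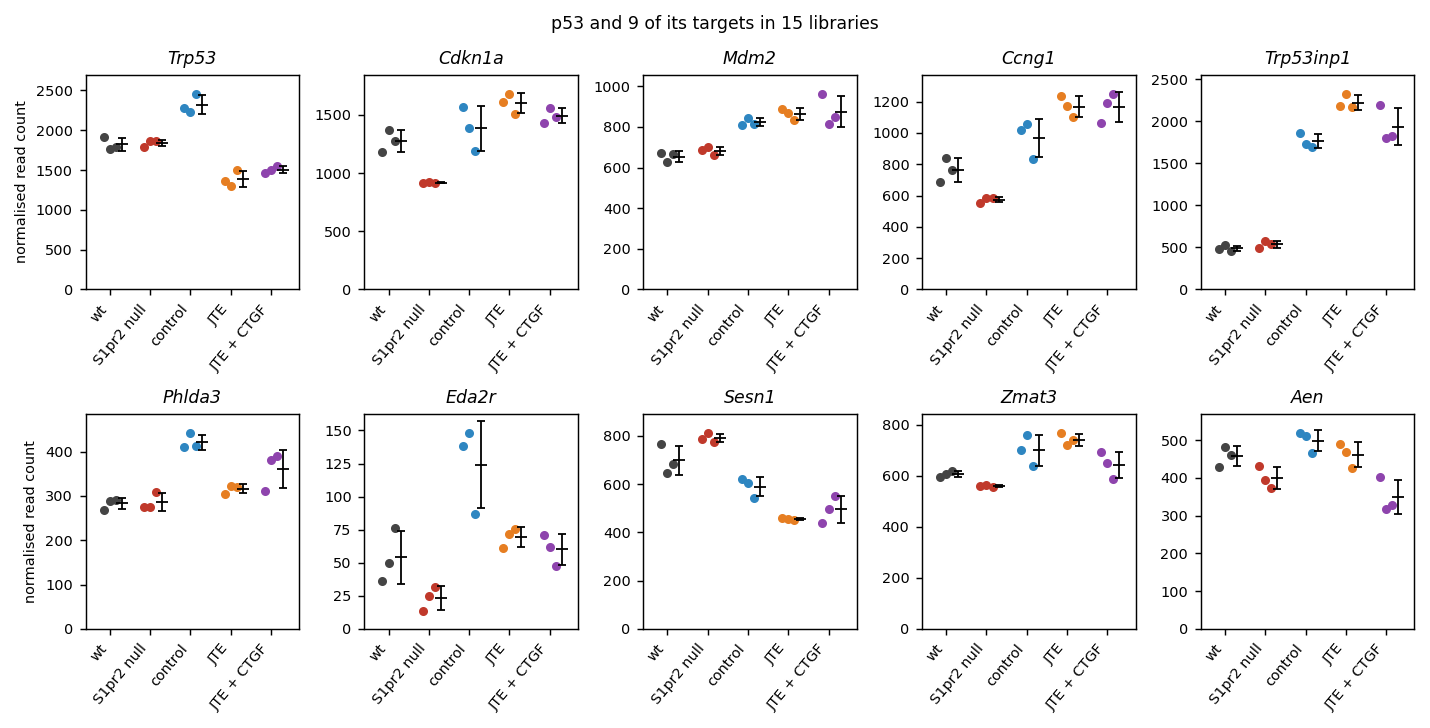
Normalised read counts of Trp53 and 9 of its targets (y axis, each panel from 0) in the 15 libraries (points, by group on the x axis), with the group mean and SD beside them (black, n = 3). Trp53 lay at 1299.8 to 1552 in the 6 libraries with JTE and at 1765 or more in all others, while Trp53inp1 lay at 581 or less in pancreata taken directly and at 1699.6 or more in explants.

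Differences were tested in 5 pairwise comparisons over all 16245 genes with enough reads, and a gene was called at an adjusted p below 0.05. After 2 days of culture (control against wt) 7 of the 10 genes were called higher, where 28.5% of all genes tested were, and 1 was called lower, where 29.3% of all genes were. The median log2 fold change of the 10 genes was 0.34, against −0.02 for all genes. Time in culture, age and the choice of the dorsal bud differ together in this comparison and cannot be told apart. Blood markers moved with it, with summed levels of 605 to 786 CPM (counts scaled to library size) in wt and 12.8 to 34.2 in control and 6 of 6 lower, as did macrophage markers, at 67.4 to 75.0 and 124 to 149 CPM with 4 of 5 higher. Endocrine markers summed to 1655 to 1888 CPM in wt and 4133 to 4691 CPM in control, with 2 of 5 higher and 1 lower, and epithelial markers to 3868 to 4940 and 8600 to 10930 CPM, with 4 of 9 higher and 1 lower. Much of the epithelial sum is the single gene Cpa1, which rose from a mean of 25643 to 89391 normalised reads. The median log2 fold change of the 9 epithelial markers was 0.12. The part of these cells in the difference was not tested, and in whole organs fewer cells of a type and less RNA per cell cannot be told apart.

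Between the libraries labelled S1pr2 null and wt, Cdkn1a, Ccng1 and Eda2r were called lower (3 of 10, against 13.3% of all genes) and no member was called higher (12.6% of all genes). The median was −0.05, against −0.01 for all genes. With a 95% interval for Trp53 of −0.11 to 0.13 and for Mdm2 of −0.07 to 0.19, the log2 differences of p53 and its ligase were small. Endocrine markers summed to 1655 to 1888 CPM in wt and 785 to 936 CPM in the libraries labelled S1pr2 null, with 4 of 5 called lower, and epithelial markers to 3868 to 4940 and 2481 to 2591 CPM, with 6 of 9 called lower. Cpa1, a large part of the epithelial sum, fell from a mean of 25643 to 10294 normalised reads, and the epithelial list had a median of −0.56. Blood markers summed to 605 to 786 and 1011 to 1389 CPM. The part of these cells in the result was not tested.

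Under JTE members were called in both directions, at shares not far from those of all genes. The control libraries also enter the comparison with wt, so the comparisons are not independent. Cdkn1a, Ccng1 and Trp53inp1 were called higher than in control (3 of 10, against 25.9% of all genes) and Trp53, Phlda3, Eda2r and Sesn1 lower (4 of 10, against 26.2%), with a median of −0.02 against 0.00 for all genes. The 7 calls held without the library JTE 3, but over all single libraries left out in turn the count ranged from 1 to 3 higher and 3 to 4 lower, since Cdkn1a, Ccng1 and Eda2r each lost the call without at least 1 other library. Endocrine markers summed to 4133 to 4691 CPM in control and 605 to 884 under JTE, with 5 of 5 lower, and macrophage markers to 124 to 149 and 55.2 to 65.5 CPM, with 5 of 5 lower. Epithelial markers summed to 8600 to 10930 CPM in control and 8068 to 14790 CPM under JTE, although 5 of 9 were called lower and 1 higher, with a median of −0.57. The sum is mostly Cpa1, a digestive enzyme precursor, which was not called (0.44 ± 0.19 (SE), adjusted p = 0.0601). Whether these cells had a part in the differences of the members was not tested.

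With CTGF added to JTE, Ccng1 alone of the 10 was called higher than in control, where 28.1% of all genes were, and Trp53, Phlda3, Eda2r, Sesn1 and Aen were called lower (5 of 10, against 33.0%). The median was −0.17, against −0.03 for all genes. This comparison uses the same control libraries as the one for JTE alone, so the values are given side by side and are not independent. Between JTE + CTGF and JTE, Zmat3 and Aen were called lower (2 of 10, against 16.8% of all genes) and no member higher (13.6%), with a median of −0.05 against 0.00. Endocrine markers summed to 672 to 1148 CPM and macrophage markers to 44.7 to 61.4 CPM under JTE + CTGF. Against control 4 of 5 endocrine and 5 of 5 macrophage markers were lower, and of 9 epithelial markers 5 were lower and 2 higher. Blood markers summed to 14.2 to 44.0 CPM under JTE and 66.6 to 90.6 CPM under JTE + CTGF, with 3 of 6 higher against JTE and 4 of 6 higher against control. The part of these cells in the results was not tested.

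The study set a stricter criterion, which asks of a protein-coding gene that its fold change lie outside 0.6 to 1.6, its adjusted p not exceed 0.1 and 1 of its group means pass 100 normalised reads. By it, Trp53inp1 and Eda2r were regulated in control against wt, where 12.1% of all genes tested were, and Trp53 and Eda2r under JTE (8.25%). Trp53 lay at the edge of the criterion under JTE, with a fold change of 0.598, and missed it without control 3 (log2 −0.70), JTE 1 (−0.73) or JTE 2 (−0.69) and with no filter on low counts (−0.73), as Eda2r did without control 2 (−0.69). Eda2r was the member regulated under JTE + CTGF (11.8%). No member met the criterion in the libraries labelled S1pr2 null (3.00% of all genes) or between JTE + CTGF and JTE (1.74%).

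**Figure D2:**
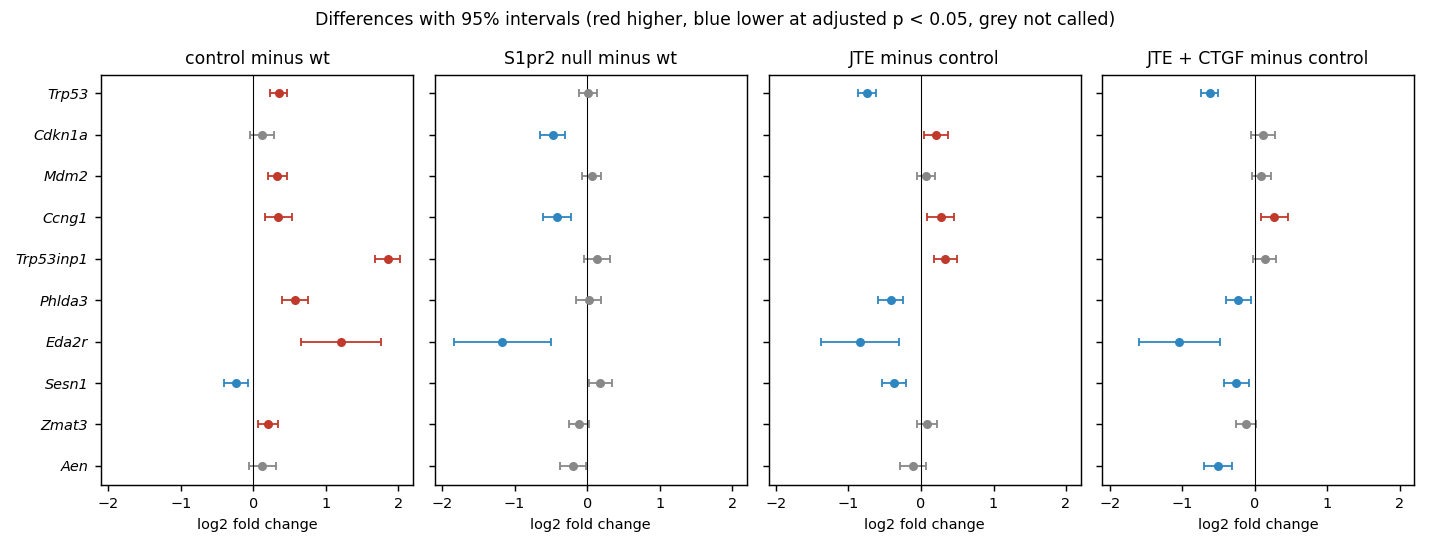
Log2 fold change (x axis) of Trp53 and 9 targets (y axis) in 4 comparisons, with 95% intervals of the edgeR fit; red and blue mark genes higher and lower at an adjusted p below 0.05, grey those not called. Trp53inp1 in control minus wt (1.85) was the largest difference. Trp53 lay at 0.35 in control minus wt and at −0.74 in JTE minus control, which share the control libraries.

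Trp53 itself (ENSMUSG00000059552, chr11:69580359-69591873, plus strand, mm10) was higher in control than in wt and lower under JTE than in control. Both comparisons use the same control libraries and are not independent. Its normalised read counts, scaled to a common library size, were 1920.1, 1765 and 1783 in wt and 1791, 1859.7 and 1860.0 in the libraries labelled S1pr2 null, and these groups overlapped. Control explants gave 2278, 2225 and 2454, all above every pancreas taken directly, with a log2 fold change over wt of 0.35 ± 0.06 (SE), adjusted p = 5.49e-05. Counts were 1367, 1299.8 and 1495 under JTE and 1460.1, 1502 and 1552 under JTE + CTGF. The 6 libraries with JTE were thus the lowest of the 15, without overlap with any other group. The log2 fold change from control was −0.74 ± 0.06 (SE), adjusted p = 2.15e-08 under JTE, where the level fell by 40.2%, and −0.62 ± 0.06 (SE), adjusted p = 9.75e-08 under JTE + CTGF. JTE + CTGF and JTE differed by 0.12 ± 0.06 (SE), adjusted p = 0.144, and this difference was called without the library JTE 3 (0.21, adjusted p = 0.013). The difference between genotypes was 0.01 ± 0.06 (SE), adjusted p = 0.914.

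Cdkn1a (ENSMUSG00000023067, chr17:29090979-29100722, plus strand), the cell cycle inhibitor with the complete element in the window of its upstream start, was lower in the libraries labelled S1pr2 null. Counts were 1184, 1372 and 1276 in wt and 917, 923 and 916 in the libraries labelled S1pr2 null, which lay close together (SD 4.06) and below every other library. The log2 fold change was −0.47 ± 0.08 (SE), adjusted p = 0.000404, a level that fell by 28.1%. Control explants spread widely, at 1572, 1388 and 1191, and overlapped wt (0.12 ± 0.08 (SE), adjusted p = 0.224). Without control 3, the lowest of them, the difference from wt was called (0.21, adjusted p = 0.0174). JTE gave 1614, 1679.7 and 1508, a group that overlapped control through control 1, and JTE + CTGF gave 1435, 1562 and 1486. The log2 fold change under JTE was 0.21 ± 0.08 (SE), adjusted p = 0.0349, and this call did not hold without control 2 (0.21, adjusted p = 0.0686), control 3 (0.11, adjusted p = 0.206), JTE 1 (0.20, adjusted p = 0.0734) or JTE 2 (0.17, adjusted p = 0.117), with the size factors of DESeq2 (0.19, adjusted p = 0.0586), in DESeq2 (0.19, adjusted p = 0.0599) or when only the libraries compared were fitted (0.20, adjusted p = 0.113). JTE + CTGF differed from control by 0.11 ± 0.08 (SE), adjusted p = 0.24, which was called only without control 1 (0.21, adjusted p = 0.0228), and from JTE by −0.10 ± 0.08 (SE), adjusted p = 0.38. An antisense transcript annotated in GENCODE M21 overlaps 90 bases of the Cdkn1a exons, and its reads cannot be told apart if counting ignored strand.

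Mdm2 (ENSMUSG00000020184, chr10:117688888-117710758, minus strand), the ligase of the feedback loop, was called in culture and in none of the other comparisons. Its counts were 669.8, 625 and 667 in wt and 686, 699 and 661 in the libraries labelled S1pr2 null. Control explants gave 809, 846 and 813, all above the 6 pancreata taken directly, with a log2 fold change over wt of 0.33 ± 0.06 (SE), adjusted p = 0.000169. JTE gave 889.8, 869 and 833 and JTE + CTGF 962, 815 and 849, and both groups overlapped control. The differences from control were 0.07 ± 0.06 (SE), adjusted p = 0.342 under JTE (95% interval −0.06 to 0.20) and 0.09 ± 0.06 (SE), adjusted p = 0.207 under JTE + CTGF, and that between genotypes was 0.06 ± 0.06 (SE), adjusted p = 0.509. JTE + CTGF and JTE differed by 0.02 ± 0.06 (SE), adjusted p = 0.842.

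Ccng1 (ENSMUSG00000020326, chr11:40748552-40755311, minus strand) encodes cyclin G1, which recruits the phosphatase PP2A to Mdm2. Counts were 687, 842 and 766 in wt and 553, 584 and 584 in the libraries labelled S1pr2 null, without overlap, and the log2 fold change was −0.41 ± 0.09 (SE), adjusted p = 0.00311. It was, with Cdkn1a, one of the members that hold a complete element, and both were lower in that group. Eda2r, which had no match in its window, was called lower there too. Control explants gave 1016, 1059.6 and 832, of which control 3 overlapped wt, with a log2 fold change of 0.34 ± 0.09 (SE), adjusted p = 0.00329. Every library with JTE lay above every control library, with 1236, 1171 and 1099 under JTE and 1061, 1189 and 1248 under JTE + CTGF. The log2 fold changes from control were 0.27 ± 0.09 (SE), adjusted p = 0.0158 and 0.27 ± 0.09 (SE), adjusted p = 0.0148. The first was not called without control 3 (0.17, adjusted p = 0.0979) or JTE 1 (0.23, adjusted p = 0.0625), and the second without control 3 (0.17, adjusted p = 0.0939) or JTE + CTGF 3 (0.22, adjusted p = 0.072). The difference between JTE + CTGF and JTE was 0.00 ± 0.09 (SE), adjusted p = 0.985, with a sign that changed under other settings.

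Trp53inp1 (ENSMUSG00000028211, chr4:11156431-11174379, plus strand), whose protein promotes the phosphorylation of p53 and takes part in autophagy, showed the largest change of the 10. Pancreata taken directly gave 479.8, 523 and 461 in wt and 491, 581 and 540.1 in the libraries labelled S1pr2 null, with a difference of 0.14 ± 0.08 (SE), adjusted p = 0.246. Control explants gave 1858, 1726 and 1699.5, which is 3.61-fold above wt (1.85 ± 0.08 (SE), adjusted p = 9.19e-12). All 3 control libraries lay far above the wt range. JTE raised the level further, to 2176, 2323 and 2168, all above control (0.34 ± 0.07 (SE), adjusted p = 0.00114). JTE + CTGF gave 2193, 1797 and 1819, where the first library lay with the JTE libraries and the others within the control range. Its difference from control was 0.14 ± 0.08 (SE), adjusted p = 0.124, called without JTE 3 (0.17, adjusted p = 0.0445) and with no filter on low counts (0.17, adjusted p = 0.0353). Its difference from JTE was −0.20 ± 0.07 (SE), adjusted p = 0.0527, called without JTE + CTGF 1 (−0.30, adjusted p = 0.00364) and without S1pr2 null 1 (−0.20, adjusted p = 0.0498).

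Phlda3 (ENSMUSG00000041801, chr1:135766119-135769136, plus strand) encodes a small protein that keeps the kinase Akt from the membrane. Counts were 269, 289 and 292 in wt and 276, 275 and 309.6 in the libraries labelled S1pr2 null, which overlapped (0.02 ± 0.08 (SE), adjusted p = 0.896). Control explants gave 411, 441 and 412, above all other libraries, with a log2 fold change over wt of 0.57 ± 0.08 (SE), adjusted p = 1.38e-05. JTE gave 305, 323 and 321 and JTE + CTGF 312, 380.2 and 389.7. Both groups lay wholly below control, by −0.42 ± 0.08 (SE), adjusted p = 0.000416 and by −0.23 ± 0.08 (SE), adjusted p = 0.0243. The second call did not hold without control 2 (−0.19, adjusted p = 0.0901), JTE 3 (−0.19, adjusted p = 0.059) or JTE + CTGF 1 (−0.13, adjusted p = 0.153), with no filter on low counts (−0.19, adjusted p = 0.0928) or with only the libraries compared (−0.20, adjusted p = 0.0905). JTE + CTGF exceeded JTE by 0.19 ± 0.08 (SE), adjusted p = 0.0991, which was called without JTE + CTGF 1 (0.28, adjusted p = 0.0112).

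Eda2r (ENSMUSG00000034457, chrX:97333840-97377216, minus strand), a receptor of the tumour necrosis factor family that binds ectodysplasin A2, was the least abundant member and varied most between replicates. Counts were 36.0, 49.8 and 76.0 in wt and 13.7, 24.9 and 32.0 in the libraries labelled S1pr2 null, without overlap (−1.17 ± 0.32 (SE), adjusted p = 0.0115). This call did not hold without wt 3 (−0.84, adjusted p = 0.0824) or S1pr2 null 1 (−0.91, adjusted p = 0.0582). Control explants gave 138, 148 and 86.4, which lay above all other libraries and 2.30-fold above wt (1.20 ± 0.26 (SE), adjusted p = 0.000788). JTE gave 61.4, 71.5 and 75.3 and JTE + CTGF gave 70.9, 61.8 and 47.4. The log2 fold changes from control were −0.84 ± 0.25 (SE), adjusted p = 0.011 and −1.04 ± 0.26 (SE), adjusted p = 0.00256, and the first was not called without control 2 (−0.69, adjusted p = 0.0544). JTE + CTGF and JTE overlapped (−0.21 ± 0.28 (SE), adjusted p = 0.618).

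Sesn1 (ENSMUSG00000038332, chr10:41810574-41908424, plus strand) encodes sestrin 1, which restrains mTORC1, and was the member lower in culture. Counts were 766, 646 and 683 in wt and 789, 811 and 776 in the libraries labelled S1pr2 null, which were all higher. That difference was 0.18 ± 0.08 (SE), adjusted p = 0.0872, and it was called without wt 1 (0.25, adjusted p = 0.0276) and with only the libraries compared (0.19, adjusted p = 0.0284). Control explants gave 620.0, 605 and 545, below all pancreata taken directly (−0.24 ± 0.08 (SE), adjusted p = 0.0122), a call that did not hold without wt 1 (−0.17, adjusted p = 0.082) or control 3 (−0.19, adjusted p = 0.0658). JTE gave 459, 457 and 450.2, close together and below control (−0.37 ± 0.08 (SE), adjusted p = 0.000884). JTE + CTGF gave 438, 497 and 551, of which 1 library overlapped control (−0.25 ± 0.08 (SE), adjusted p = 0.012), and this call was lost without JTE + CTGF 1 (−0.17, adjusted p = 0.0782). JTE + CTGF and JTE differed by 0.12 ± 0.08 (SE), adjusted p = 0.296.

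Zmat3 (ENSMUSG00000027663, chr3:32334796-32365678, minus strand), a zinc finger protein that binds RNA, changed little. Counts were 595, 608 and 617 in wt, 559, 563 and 557 in the libraries labelled S1pr2 null and 699.7, 760.0 and 639 in control. The genotype groups lay apart by a small distance (−0.12 ± 0.07 (SE), adjusted p = 0.217), and control lay above wt (0.21 ± 0.07 (SE), adjusted p = 0.0132), which was not called without control 2 (0.14, adjusted p = 0.0931). JTE gave 766, 719.9 and 738 and JTE + CTGF 692, 648 and 589, without overlap between them. Their difference was −0.21 ± 0.07 (SE), adjusted p = 0.027, and this call did not hold without JTE 1 (−0.18, adjusted p = 0.0883), JTE 3 (−0.17, adjusted p = 0.0865), JTE + CTGF 2 (−0.21, adjusted p = 0.056) or JTE + CTGF 3 (−0.15, adjusted p = 0.146), in DESeq2 (−0.19, adjusted p = 0.0552), with no filter on low counts (−0.18, adjusted p = 0.0744) or with only the libraries compared (−0.19, adjusted p = 0.0762). Against control, JTE differed by 0.08 ± 0.07 (SE), adjusted p = 0.305 and JTE + CTGF by −0.12 ± 0.07 (SE), adjusted p = 0.123, the latter called without control 3 (−0.18, adjusted p = 0.0287) or JTE + CTGF 1 (−0.18, adjusted p = 0.0415).

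Aen (ENSMUSG00000030609, chr7:78895854-78911209, plus strand) encodes a nuclease that enhances apoptosis, and was lowest when CTGF was added. Counts were 428, 482 and 462 in wt, 431, 394 and 374 in the libraries labelled S1pr2 null and 518, 512 and 467 in control, with overlap of each of the latter with wt. The differences from wt were −0.20 ± 0.09 (SE), adjusted p = 0.11 and 0.13 ± 0.09 (SE), adjusted p = 0.223. JTE gave 489.8, 469 and 426, overlapping control (−0.11 ± 0.09 (SE), adjusted p = 0.288), and JTE + CTGF gave 402, 318 and 329, below every control and every JTE library. The log2 fold change of JTE + CTGF was −0.51 ± 0.09 (SE), adjusted p = 0.000112 against control and −0.40 ± 0.09 (SE), adjusted p = 0.0032 against JTE, and both calls held when any single library was left out.

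The response to JTE and the difference between genotypes share no library, so they were compared directly as a difference of differences over all 16245 genes. 2 of the 10 members were called higher (21.5% of all genes) and 3 lower (21.5%). Cdkn1a and Ccng1 lay on opposite sides of 0 in the 2 contrasts, lower in the libraries labelled S1pr2 null and higher under JTE, and differed by 0.68 ± 0.11 (SE), adjusted p = 0.000137 and 0.68 ± 0.13 (SE), adjusted p = 0.000377. Trp53, Phlda3 and Sesn1 fell under JTE and their genotype differences were 0.01, 0.02 and 0.18, none of them called, and the contrasts differed by −0.75 ± 0.08 (SE), adjusted p = 1.94e-06, −0.43 ± 0.12 (SE), adjusted p = 0.00649 and −0.55 ± 0.11 (SE), adjusted p = 0.000675. These 5 calls held when any single library was left out. No difference between the contrasts was called for Mdm2 (0.01 ± 0.08 (SE), adjusted p = 0.936), Trp53inp1 (0.20 ± 0.11 (SE), adjusted p = 0.175), Eda2r (0.33 ± 0.41 (SE), adjusted p = 0.535), Zmat3 (0.20 ± 0.09 (SE), adjusted p = 0.0954) or Aen (0.08 ± 0.12 (SE), adjusted p = 0.615), of which Zmat3 was called without control 2 (0.26, adjusted p = 0.0312). The 95% interval for Eda2r, −0.53 to 1.19, was wide. Genotype, antagonist, culture and age differ together between the contrasts and cannot be told apart.

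**Figure D3:**
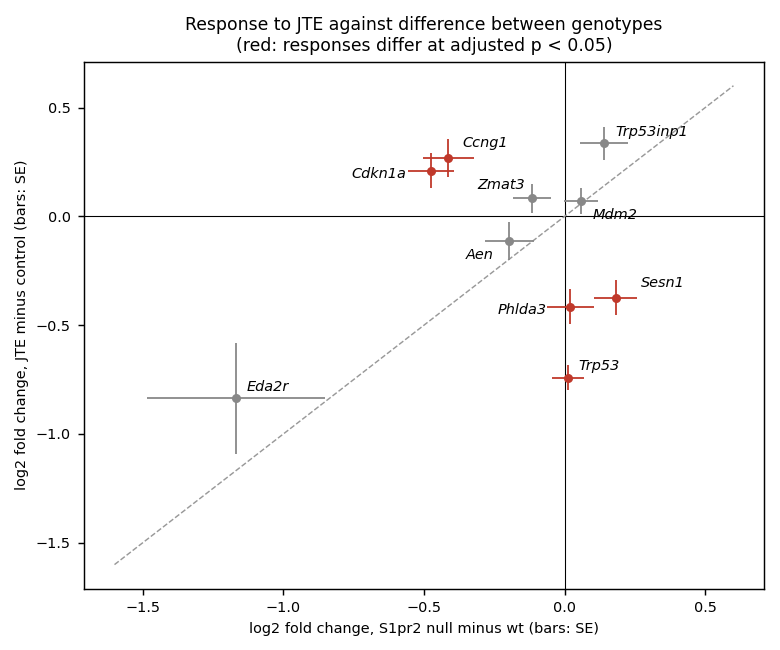
Log2 fold change of JTE against control (y axis) plotted against that of the libraries labelled S1pr2 null against wt (x axis) for Trp53 and 9 targets, with SE bars, the line of equal change dashed and genes whose responses differ at an adjusted p below 0.05 in red. Cdkn1a and Ccng1 lie at the upper left (−0.47 and 0.21 for Cdkn1a), and Trp53 lies below the centre (0.01 and −0.74).

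Other direct p53 targets of the cell death programme (12 genes, all tested) moved most in culture. In control against wt 8 were higher and 4 lower, where 28.5% and 29.3% of all genes tested were, with a median of 0.67. Pmaip1, which encodes the BH3-only protein Noxa, rose from a mean of 10.8 to 153 normalised reads (3.80 ± 0.23 (SE), adjusted p = 5.6e-10). Fas, the death receptor, rose from 12.1 to 47.4 (1.96 ± 0.27 (SE), adjusted p = 1.07e-05), and Bbc3, which encodes Puma, from 151 to 469 (1.63 ± 0.11 (SE), adjusted p = 1.52e-09). Dram1, a lysosomal regulator of autophagy, rose as well (1.22 ± 0.13 (SE), adjusted p = 3.28e-07). Under JTE 3 were higher and 4 lower (25.9% and 26.2% of all genes), with a median of −0.17. Pmaip1 fell to 35.0 (−2.12 ± 0.19 (SE), adjusted p = 1.41e-07) and Dram1 to 457 (−0.61 ± 0.12 (SE), adjusted p = 0.000467), while Tnfrsf10b, a TRAIL receptor, rose to 309 (0.64 ± 0.09 (SE), adjusted p = 2.57e-05). Under JTE + CTGF 5 were higher and 5 lower (28.1% and 33.0% of all genes), with a median of 0.07. Pmaip1 (−1.46 ± 0.18 (SE), adjusted p = 3.37e-06) and Pidd1, part of the complex that activates a caspase (−0.73 ± 0.11 (SE), adjusted p = 2.73e-05), fell most, and Tnfrsf10b (0.52 ± 0.10 (SE), adjusted p = 0.00018) and Bbc3 (0.37 ± 0.09 (SE), adjusted p = 0.003) rose. Against JTE alone 2 were higher and 2 lower (13.6% and 16.8% of all genes), with a median of 0.11. Pmaip1 was higher (0.66 ± 0.21 (SE), adjusted p = 0.0285) and Pidd1 lower (−0.37 ± 0.11 (SE), adjusted p = 0.0213). In the libraries labelled S1pr2 null 2 were higher and 3 lower (12.6% and 13.3% of all genes), with a median of −0.11. Perp, a desmosomal protein, fell (−1.26 ± 0.17 (SE), adjusted p = 6.76e-05) as did Dram1 (−0.78 ± 0.14 (SE), adjusted p = 0.000636), and Tnfrsf10b rose (0.94 ± 0.10 (SE), adjusted p = 3.83e-06).

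Targets of arrest, repair and metabolism (20 genes, all tested) gave 7 higher and 5 lower in culture, shares near the 28.5% and 29.3% of all genes tested, with a median of −0.05. Gdf15, a secreted stress cytokine, rose from 8.09 to 102 normalised reads (3.64 ± 0.27 (SE), adjusted p = 5.51e-09), Btg2, an antiproliferative gene, from 766 to 2127 (1.47 ± 0.12 (SE), adjusted p = 2.86e-08), and Gtse1, expressed in G2 and S phase, fell (−0.97 ± 0.09 (SE), adjusted p = 8.83e-08). Under JTE 8 were higher and 7 lower (25.9% and 26.2% of all genes), with a median of 0.09. Gdf15 rose further, to 484 (2.25 ± 0.15 (SE), adjusted p = 2.92e-09), as did Sesn2, the relative of Sesn1 (1.67 ± 0.08 (SE), adjusted p = 4.13e-11), and Rrm2b, a ribonucleotide reductase subunit (1.00 ± 0.08 (SE), adjusted p = 4.72e-08). Sfn, which encodes 14-3-3 sigma, fell (−1.55 ± 0.23 (SE), adjusted p = 2.22e-05), as did Btg2 (−0.79 ± 0.12 (SE), adjusted p = 3.45e-05). Sesn1 and Sesn2 thus changed in opposite directions under JTE. Under JTE + CTGF 10 were higher and 7 lower (28.1% and 33.0% of all genes), with a median of 0.19, and Gdf15 (2.23 ± 0.15 (SE), adjusted p = 2.18e-09) and Sesn2 (1.51 ± 0.08 (SE), adjusted p = 1.23e-10) rose, Sfn fell (−1.84 ± 0.24 (SE), adjusted p = 4.16e-06) and Gadd45a, a growth arrest gene, rose (0.93 ± 0.11 (SE), adjusted p = 9.55e-07). Against JTE alone 3 were higher and 1 lower (13.6% and 16.8% of all genes), with a median of −0.02. For the null label none was higher and 7 were lower (12.6% and 13.3% of all genes), with a median of −0.14. Sfn (−0.76 ± 0.21 (SE), adjusted p = 0.0125), Rps27l, a ribosomal protein paralogue (−0.55 ± 0.09 (SE), adjusted p = 0.000269), Btg2 (−0.43 ± 0.13 (SE), adjusted p = 0.0214) and Gtse1 (−0.32 ± 0.08 (SE), adjusted p = 0.00935) were the 4 that fell most.

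Genes that act on p53, and its relatives Trp63 and Trp73, formed a list of 21, of which 20 were tested. Cdkn2a, whose alternative product Arf inhibits Mdm2, had too few reads. In culture 3 were higher and 8 lower (28.5% and 29.3% of all genes), with a median of −0.19. Trp73 fell from a mean of 20.8 to 6.29 normalised reads (−1.72 ± 0.50 (SE), adjusted p = 0.00758). Ppp1r13l rose from 198 to 356 (0.84 ± 0.11 (SE), adjusted p = 4.63e-06). Under JTE 3 were higher and 6 lower, the latter a share near the 26.2% of all genes (25.9% higher), with a median of −0.08. Trp63 fell under JTE from a mean of 54.1 to 5.82 normalised reads (−3.22 ± 0.33 (SE), adjusted p = 6.19e-07). The checkpoint kinases Chek1 (−0.44 ± 0.08 (SE), adjusted p = 0.000149) and Chek2 (−0.42 ± 0.10 (SE), adjusted p = 0.00124) fell as well. Under JTE + CTGF 2 were higher and 12 lower (28.1% and 33.0% of all genes), with a median of −0.28. Trp63 fell against control here too, to a mean of 3.49 normalised reads (−3.92 ± 0.38 (SE), adjusted p = 1.82e-07). The kinase Hipk2, which phosphorylates p53, fell from 1394 in control to 336 (−2.05 ± 0.09 (SE), adjusted p = 1.23e-11), and Mdm4, the inhibitory partner of Mdm2, from 550.0 to 329 (−0.74 ± 0.14 (SE), adjusted p = 0.000175). Atm, the kinase that answers to DNA breaks, fell as well (−0.71 ± 0.09 (SE), adjusted p = 4.96e-06). Against JTE alone 4 were higher and 6 lower (13.6% and 16.8% of all genes), with a median of −0.15, and Hipk2 (−1.85 ± 0.09 (SE), adjusted p = 9.04e-10), Mdm4 (−0.99 ± 0.13 (SE), adjusted p = 4.28e-05), Atm (−0.80 ± 0.09 (SE), adjusted p = 8.56e-06) and the acetyltransferase Ep300 (−0.78 ± 0.07 (SE), adjusted p = 9.39e-07) fell, although Mdm2 did not pass the test. In the libraries labelled S1pr2 null 2 were higher and 2 lower (12.6% and 13.3% of all genes), with a median of 0.03. Trp73 fell from a mean of 20.8 to 8.01 normalised reads (−1.38 ± 0.47 (SE), adjusted p = 0.0383), and Trp53bp1 rose (0.29 ± 0.06 (SE), adjusted p = 0.00171).

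Cell cycle genes that p53 can repress through p21 and the DREAM complex (10 genes, all tested) fell in culture and again under JTE. In control against wt all 10 fell (29.3% of all genes did), with a median of −0.94, for example Ccnb1, cyclin B1 (−1.12 ± 0.08 (SE), adjusted p = 4.49e-09), and Aurkb, a mitotic kinase (−1.09 ± 0.10 (SE), adjusted p = 1.4e-07). Under JTE all 10 fell further (26.2% of all genes), with a median of −0.73, led by the mitotic kinase Plk1 (−1.04 ± 0.09 (SE), adjusted p = 6.64e-08) and Cdc20, an activator of the anaphase-promoting complex (−0.99 ± 0.09 (SE), adjusted p = 1.88e-07). Under JTE + CTGF all 10 fell below control (33.0% of all genes), with a median of −0.71. Between JTE + CTGF and JTE 1 was lower (16.8% of all genes), Bub1 (−0.31 ± 0.09 (SE), adjusted p = 0.0202), and the median was −0.20. In the libraries labelled S1pr2 null, where Cdkn1a was lower, none was higher and 2 were lower (13.3% of all genes), Plk1 (−0.33 ± 0.08 (SE), adjusted p = 0.00523) and Ccnb2 (−0.32 ± 0.08 (SE), adjusted p = 0.007), with a median of −0.16. Cdkn1a, which encodes p21, was not called in culture (0.12, adjusted p = 0.224) or under JTE + CTGF (0.11, adjusted p = 0.24). Under JTE its call (0.21, adjusted p = 0.0349) was lost without some single libraries. Trp53 was higher in culture and lower under JTE. Such genes can also depend on the share of dividing cells, and neither that share nor levels per dividing cell were measured. The part of p53, p21 or dividing cells in these falls was not tested.

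Genes of the integrated stress response (10 genes, all tested), a pathway that runs through Atf4 and shares targets such as Sesn2, Gdf15, Ddit4 and Tnfrsf10b with p53, were set beside them. In culture 8 were higher and 1 lower (28.5% and 29.3% of all genes), with a median of 0.83. Under JTE all 10 were higher (25.9% of all genes), with a median of 1.50, led by Trib3, a pseudokinase (4.89 ± 0.15 (SE), adjusted p = 5.38e-13), and Ddit3, which encodes the transcription factor Chop (3.47 ± 0.14 (SE), adjusted p = 1.38e-11). Under JTE + CTGF all 10 were higher than in control (28.1% of all genes), with a median of 1.79, and against JTE alone 1 was higher (13.6% of all genes), Nupr1 (0.41 ± 0.12 (SE), adjusted p = 0.0183), and none lower. For the null label none was higher and 5 were lower (13.3% of all genes), with a median of −0.29, among them Asns, asparagine synthetase (−1.32 ± 0.10 (SE), adjusted p = 2.13e-07). Of the shared targets, Sesn2 and Gdf15 rose in the same comparisons with wt and control as this list, and Sesn2 fell with it for the null label (−0.29 ± 0.09 (SE), adjusted p = 0.0203). Tnfrsf10b rose in all of these, the null label included, and Ddit4 rose in culture (1.26 ± 0.13 (SE), adjusted p = 4.28e-07) but had a value of −0.20 ± 0.13 (SE), adjusted p = 0.214 under JTE and fell under JTE + CTGF (−0.41 ± 0.13 (SE), adjusted p = 0.0112). The part of this pathway in the change of the shared targets was not tested.

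**Figure D4:**
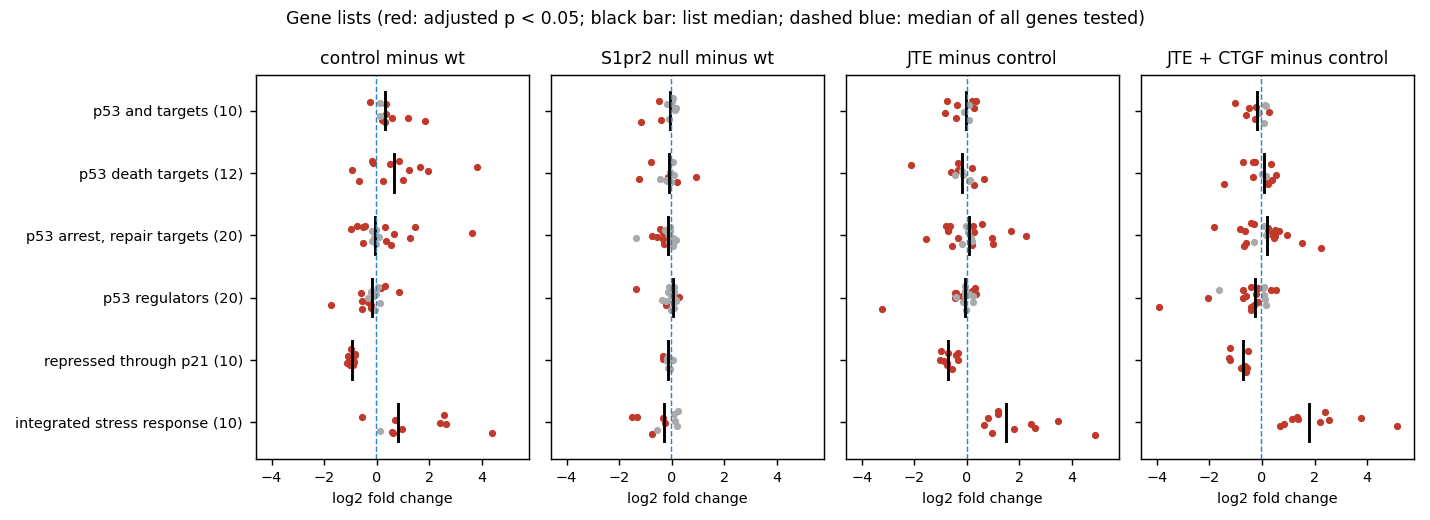
Log2 fold change (x axis) of each tested gene of 6 lists (y axis; points scattered vertically for legibility) in 4 comparisons, red where the adjusted p was below 0.05, with the list median as a black bar and the median of all genes as a dashed line. The p53 members centre on 0.34 in culture and on −0.02 under JTE, where the integrated stress response list centres on 1.50.

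Genes with a complete p53 element in their promoter window, found from sequence alone, numbered 22, of which 7 were tested (Cdkn1a, Ccng1, Rps27l, Gtse1, Mthfd1, Sptbn4 and Calhm2). In the libraries labelled S1pr2 null 5 of the 7 were lower and none higher, where 13.3% and 12.6% of all genes tested were. Beside Cdkn1a, Ccng1, Rps27l and Gtse1 given above, Mthfd1, an enzyme of folate metabolism, fell by 0.31 on the log2 scale (adjusted p = 0.000269), while Sptbn4 (−0.03, adjusted p = 0.95) and Calhm2 (0.12, adjusted p = 0.589) were not called. Under JTE 2 were higher, Ccng1 and Cdkn1a, and 1 lower, Gtse1 (25.9% and 26.2% of all genes). Under JTE + CTGF 2 were higher, Ccng1 and Rps27l, and 1 lower, again Gtse1 (28.1% and 33.0% of all genes). Against JTE alone 1 was higher, Rps27l, and 1 lower, Mthfd1 (−0.15, adjusted p = 0.0314), where 13.6% and 16.8% of all genes were. In culture 2 were higher, Ccng1 and Sptbn4 (2.33, adjusted p = 3.95e-07), and 2 lower, Gtse1 and Mthfd1 (−0.73, adjusted p = 2.57e-09), where 28.5% and 29.3% of all genes were.

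Genes whose 5 group means were most like those of Trp53 and of Cdkn1a were sought among 11439 tested genes, by the root mean square difference of the centred log2 group means. Nearest to Trp53, whose group means span 0.74 on the log2 scale, were Pros1, which encodes the anticoagulant protein S (0.035), Tes, a focal adhesion protein (0.035), and Rab32, a small GTPase (0.042). Nearest to Cdkn1a, whose group means span 0.80, were Baiap2l1, an actin regulator (0.028), Mindy2, a deubiquitinase (0.041), and Kcnj11, a subunit of the ATP-sensitive potassium channel of beta cells (0.052). No other member was among them. With 5 groups, likeness is a description of the pattern only.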

How the data were processed

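Poly(A) RNA was sequenced from strand-specific libraries of 15 samples, grouped by their titles. The authors aligned single-end reads to mm10 with GSNAP and deposited raw read counts per Ensembl gene from featureCounts 1.4.6, not normalised, with the exon length of each gene. Whether counting used strand is not given in the sources used here. Reads fitting several loci were not counted, and of the 50-base words of the members' transcripts at most 8.49% (Cdkn1a) occur in another gene. Symbols were found for 24750 of 25292 genes (97.9%). No column was left out, and no comparison by the authors was used.

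Counts were tested with edgeR 4.0.16 (quasi-likelihood F-test, two-sided) in R 4.3.3, with TMM factors and filterByExpr. All 15 libraries entered a single fit with group as its one factor and no other covariate. Adjusted p-values follow Benjamini and Hochberg over the 16245 genes tested, and the biological coefficient of variation was 7.3%. A normalised read count is the count after scaling each library to the mean effective size. RPKM uses the deposited lengths. P-values measure the spread between these libraries, and totals ran from 11402804 to 13828737 reads. Alternatives were DESeq2 1.42.0, its size factors, no filter, only the libraries compared, a replicate block, the criterion of the study and leaving out each library. Likeness used genes with a mean of at least 100 normalised reads and a pseudocount of 0.5 CPM. The script was tested on simulated counts. Plots used Python 3.11.15 and matplotlib 3.10.9.

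Members and gene lists were chosen with earlier results of these data known. All members were named in each comparison. Of each other list at most the 4 called genes with the largest fold change were named per comparison, plus genes named for another comparison. Promoter windows came from RefSeq, build GRCm38.p6. Marker lists covered epithelium, endocrine cells, mesenchyme, blood, endothelium, macrophages and neural crest derivatives.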

Additional observations from a re-analysis of the deposited data

Results flagged for a closer look

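The response to JTE and the difference between the libraries labelled S1pr2 null and wt differed, by a test of the difference itself, for 5 of the 10 genes. In this test 21.5% of all genes were called higher and 21.5% lower, so that 5 of 10 is near the share of all genes. Trp53 (−0.75 ± 0.08 (SE)), Phlda3 (−0.43 ± 0.12 (SE)) and Sesn1 (−0.55 ± 0.11 (SE)) were lower in the first contrast relative to the second on the log2 scale. Cdkn1a (0.68 ± 0.11 (SE)) and Ccng1 (0.68 ± 0.13 (SE)) were higher. When each library was left out in turn the values ranged from −0.81 to −0.71 for Trp53, from −0.46 to −0.37 for Phlda3, from −0.63 to −0.50 for Sesn1, from 0.59 to 0.79 for Cdkn1a and from 0.58 to 0.76 for Ccng1, and each stayed past the threshold. Both contrasts have 3 libraries per group, and the cause of the differences was not tested.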

How the results depend on the processing

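Over the 60 member results, the fit with the replicate block kept every direction and call, including 3 higher and 4 lower members under JTE. Replicate numbers gave no clear pairing of the libraries, since same-numbered deviations correlated from −0.27 to 0.46 over 11448 genes and 5 of 15 libraries correlated best with their own number. Between JTE and control these correlations were −0.04, 0.30 and 0.46, and whether same-numbered libraries were handled together there was not tested. With DESeq2 2 results reversed and 2 lost the call, with its size factors 2 and 1, with no filter 1 and 2, and with only the libraries compared 1 and 3. The reversals concern values near 0, Ccng1 between JTE + CTGF and JTE (0.013 with the size factors, 0.026 with no filter, 0.0086 with only the libraries compared, 0.013 in DESeq2) and Mdm2 in the difference of differences (−0.014 with the size factors and in DESeq2). Member counts moved to 1 higher for S1pr2 null with only the libraries compared, 2 higher for JTE with the size factors, in DESeq2 and with only the libraries compared, 2 higher for JTE + CTGF against control with no filter, 4 lower for it with no filter and with only the libraries compared, and 1 lower for JTE + CTGF against JTE with no filter, with only the libraries compared and in DESeq2. Under the criterion of the study, which demands larger changes and is not defined for the difference of differences, the members called were 0 lower for S1pr2 null, 0 higher and 2 lower for JTE, 0 higher and 1 lower for JTE + CTGF, 0 lower for JTE + CTGF against JTE, and 2 higher and 0 lower in culture, while 488, 1341, 1913, 283 and 1971 genes of the whole table were called in these comparisons.

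Leaving out each library in turn kept the direction and call of 855 member results, while 22 lost a call, 11 gained one and 12 reversed. Members called higher ranged from 0 to 1 for S1pr2 null, 1 to 3 for JTE, 0 to 2 for JTE + CTGF, 0 to 1 for JTE + CTGF against JTE, 6 to 8 in culture and 2 to 3 for the difference of differences. Members called lower ranged from 2 to 3, 3 to 4, 4 to 6, 1 to 3, 0 to 1 and 3 to 3 in the same order. The reversals fell on results near 0, given here with their ranges over all fits with a library left out. These were −0.055 to 0.060 for Ccng1 and −0.054 to 0.068 for Mdm2 (JTE + CTGF against JTE). They were −0.011 to 0.043 for Mdm2 (difference of differences), −0.040 to 0.050 for Phlda3 and −0.012 to 0.050 for Trp53 (S1pr2 null). The cause was not tested. Depth limits Eda2r most, with as few as 13.7 normalised reads in a library.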

Other observations

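S1pr2 in the explants had normalised read counts of 810.1, 796 and 848 in control, 769, 845 and 909 under JTE and 1085, 933 and 938 under JTE + CTGF. Mesenchymal markers summed to 10635 to 10819 CPM in wt and 8433 to 9986 CPM in the libraries labelled S1pr2 null. They summed to 10051 to 10516 CPM in control, 10888 to 13340 CPM under JTE and 11999 to 12676 CPM under JTE + CTGF. For the null label 2 of 5 were higher and 2 lower (12.6% and 13.3% of all genes). Under JTE 2 of 5 were higher and 1 lower (25.9% and 26.2% of all genes). Endothelial markers summed to 365 to 447 CPM in control and 273 to 307 CPM under JTE, with 4 of 4 lower (26.2% of all genes). Markers of neural crest derivatives summed to 31.2 to 43.6 CPM over all libraries, with 1 of 4 higher under JTE (25.9% of all genes).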
